A study of Arabidopsis thaliana with 6 samples.

Results

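The expansin superfamily was examined gene by gene in Arabidopsis (Arabidopsis thaliana) roots treated with cytokinin, in a study of how cytokinin starts the radial growth of roots. Its members were taken as the rows of the deposited count files whose identifier was 1 of 35 listed expansin loci. All 35 were found among the 33602 genes of the files: 26 α-expansins (EXPA), 5 β-expansins (EXPB), 3 expansin-like A genes (EXLA) and 1 expansin-like B gene (EXLB1). The RNA came from main roots of ipt1,3,5,7 plants at the age of 7 d, which carry mutations in 4 isopentenyltransferase genes of cytokinin synthesis. This genotype was shared by both groups, and no wild-type library was used. 3 libraries were from mock-treated plants harvested 1 h after transfer to dimethyl sulfoxide (DMSO), the solvent. The other 3 were from plants harvested 4 h after transfer to 1 µM 6-benzylaminopurine (BAP), a synthetic cytokinin. Root tips and lateral roots had been cut away. Since the harvest times differed, effects of cytokinin and of time after transfer cannot be told apart in any comparison below.

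Expansins are secreted proteins that loosen the plant cell wall without cutting its polymers and that work best at acid pH. Plasma membrane proton pumps (AHA) acidify the wall and so set the conditions under which expansins act, the process known as acid growth. α-Expansins loosen the cellulose network of dicot walls, β-expansins are best known as the pollen allergens of grasses, and the expansin-like proteins share the fold without an established wall-loosening activity. Wall loosening precedes cell enlargement, and in the Arabidopsis root cytokinin is known to act through EXPA1 and proton pumps at the border of the meristem.

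Each library held 19957748 to 20127269 counts, so that 1 read was worth 0.0480 to 0.0522 CPM (reads scaled to a library of 1000000, with library sizes adjusted by TMM) and a count of 0 allowed up to 0.144 to 0.157 CPM, counting error only. Of the marker lists, the 5 endodermis genes summed to 132 to 165 CPM in DMSO and 112 to 136 CPM in BAP, the 7 root tip genes to 30.3 to 35.1 and 21.3 to 29.1 CPM, and the 4 shoot photosynthesis genes to 47.3 to 69.2 and 47.8 to 87.8 CPM. The highest photosynthesis sum was that of BAP 3 alone, with 49.5 CPM in BAP 1 and 47.8 CPM in BAP 2. No list had a gene without reads. By the rule for calls given with the expansin counts, 1 endodermis gene was called higher and 2 lower (60% of the list), 2 root tip genes lower (28.6%) and 1 photosynthesis gene higher (25%), where 22.9% of all genes tested were called in either direction. Their part in the expansin results was not tested.

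Of the 35 expansin genes, 29 had at least 1 read, and 22 passed the filter on low counts and were tested. After BAP, 10 rose and 4 fell, and 8 were not called. A gene was called where its adjusted p over all 20987 genes tested (edgeR) did not exceed 0.05 and its log2 fold change reached 0.5 in either direction. The 10 higher calls were 45.5% of the tested expansins, where 11.6% of all genes tested were called higher. The 4 lower calls were 18.2% of them, against a background of 11.4%. In either direction 63.6% of the tested expansins and 22.9% of all genes tested were called. The groups did not overlap in CPM for 15 of the 22 expansins, or 68.2%, compared with 51.3% of all genes tested. The median log2 fold change of the 22 was 0.42, and that of all genes tested was 0.00. Without DMSO 1 the median of the expansins was 0.63.

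**Figure D1:**
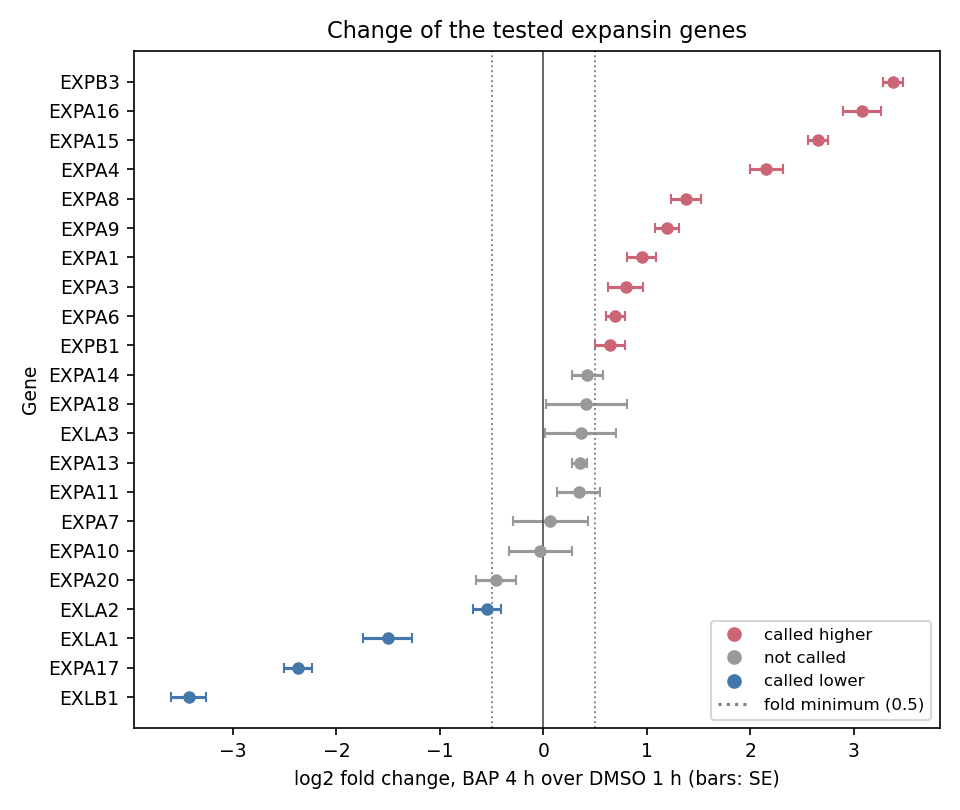
Log2 fold change (BAP 4 h over DMSO 1 h) of the 22 tested expansin genes on the horizontal axis, with the SE from edgeR as bars, 1 gene per line. The 10 genes called higher run up to EXPB3 at 3.38 and the 4 called lower run down to EXLB1 at -3.43.

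The summed transcript level of the 35 genes was 492, 417 and 507 CPM in DMSO and 1332, 1320 and 1267 CPM in BAP. The sum was thus higher in every BAP library than in any DMSO library, with means of 472 ± 48.4 and 1306 ± 34.4 CPM (SD, n = 3), a ratio of 2.77. The rise of the sum was concentrated in a few genes. EXPA4, EXPB3 and EXPA15 together held 31.2% to 35.9% of the sum in DMSO and 71.8% to 75.8% in BAP. EXLB1 went from 11.2% to 14.9% of the sum to 0.318% to 0.567%. By subfamily, the summed α-expansins went from 310 ± 43.6 to 881 ± 45.2 CPM, the β-expansins from 46.5 ± 4.53 to 387 ± 8.73, and the EXLA genes from 53.4 ± 4.93 to 32.2 ± 11.7. In bulk RNA a change in the number of cells that express a gene and a change in RNA per cell cannot be told apart.

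**Figure D2:**
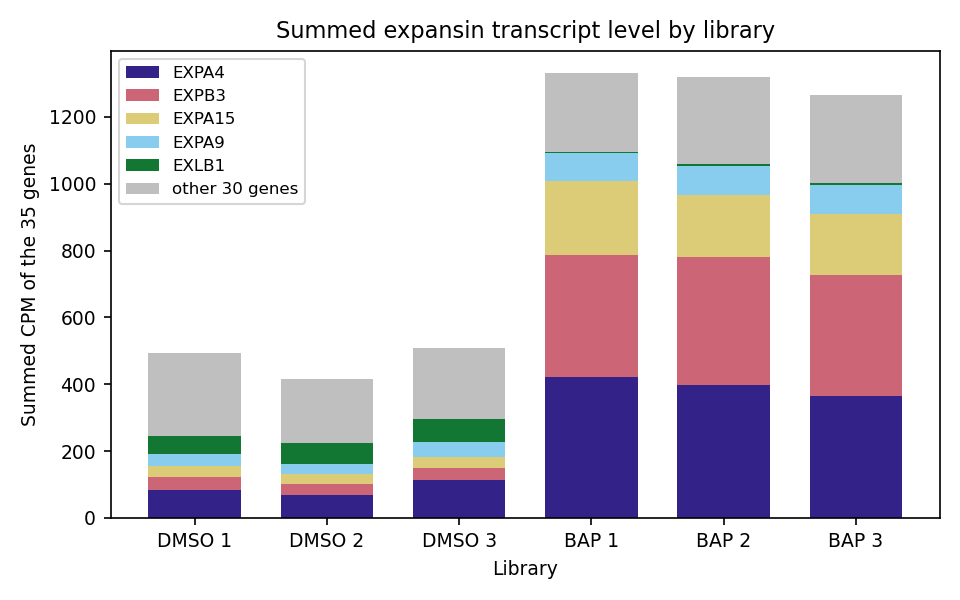
Summed CPM of the 35 expansin genes (vertical axis, from 0) in each of the 6 libraries, stacked by gene for the 5 named genes, with the remaining 30 genes in grey. The DMSO bars reach 417 to 507 and the BAP bars 1267 to 1332, and the layers of EXPA4, EXPB3 and EXPA15 hold 71.8% to 75.8% of each BAP bar.

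For comparing genes with each other, CPM was divided by the exon length in kilobases from the RefSeq annotation. The gene models behind the counts can differ from it. For EXPB3, with 2089 bp of exons, RefSeq places the gene start at 14002124, and the deposited counts place it at 14002069. The SDs do not cover such differences, so the order of genes given here is approximate. On this scale EXPA4 had the highest level in both groups, at 59.0 ± 14.4 in DMSO and 263 ± 18.8 in BAP (SD, n = 3). In DMSO it was followed by EXLB1 at 55.8 ± 6.72, which lay within the spread of EXPA4, EXLA1 at 31.8 ± 6.20 and EXPA9 at 27.3 ± 4.76, and the last pair did not differ beyond their spread. In BAP the order was EXPA4, EXPB3 at 177 ± 5.44, EXPA15 at 137 ± 15.4 and EXPA9 at 62.5 ± 1.495, which were separated by more than their SDs. EXLB1 was then in place 17 and EXLA1 in place 12 of the 35.

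The change of EXPB3 (AT4G28250) was the largest increase. This β-expansin gene lies on chromosome 4 (TAIR10, 14000038 to 14002069, minus strand). Its level was 38.5, 31.0 and 37.3 CPM in DMSO and 365, 383 and 362 CPM in BAP, so that each BAP library lay far above all controls. The log2 fold change was 3.38 ± 0.10 (SE), or 10.4-fold, with an edgeR adjusted p of 3.37e-07. The other β-expansin that could be tested, EXPB1 (AT2G20750), is the closest relative of EXPB3 in the list, with 74.2% of aligned amino acids identical. EXPB1 had 11.9, 10.6 and 10.4 CPM in DMSO and 16.1, 14.1 and 21.0 CPM in BAP. It was called higher by a smaller amount, 0.64 ± 0.15 on the log2 scale (edgeR adjusted p of 0.00943), and fell under the fold minimum without BAP 3 (0.47).

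The 3 α-expansins that rose more than 4-fold were EXPA16 (AT3G55500), EXPA15 (AT2G03090) and EXPA4 (AT2G39700). EXPA16 was a weakly expressed gene in DMSO, with 3.41, 2.55 and 3.12 CPM, and had 30.05, 27.1 and 19.9 CPM in BAP. Its log2 fold change was 3.08 ± 0.18 (edgeR adjusted p of 7.22e-06). EXPA15 went from 30.6, 29.8 and 33.2 CPM to 222, 186 and 182 CPM, a log2 fold change of 2.66 ± 0.10 (edgeR adjusted p of 7.69e-07). EXPA4 had 84.6, 69.3 and 112 CPM in DMSO, the widest spread of these 3 genes in controls, and 421, 398 and 365 CPM in BAP. Its log2 fold change was 2.16 ± 0.16 (edgeR adjusted p of 2.31e-05). None of the 3 overlapped between the groups. EXPA4 and EXPA16 shared 84.8% of aligned amino acids, and EXPA4 and EXPA15 shared 69.0%, within a range of 38.8% to 97.5% over the 300 pairs of α-expansins.

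**Figure D3:**
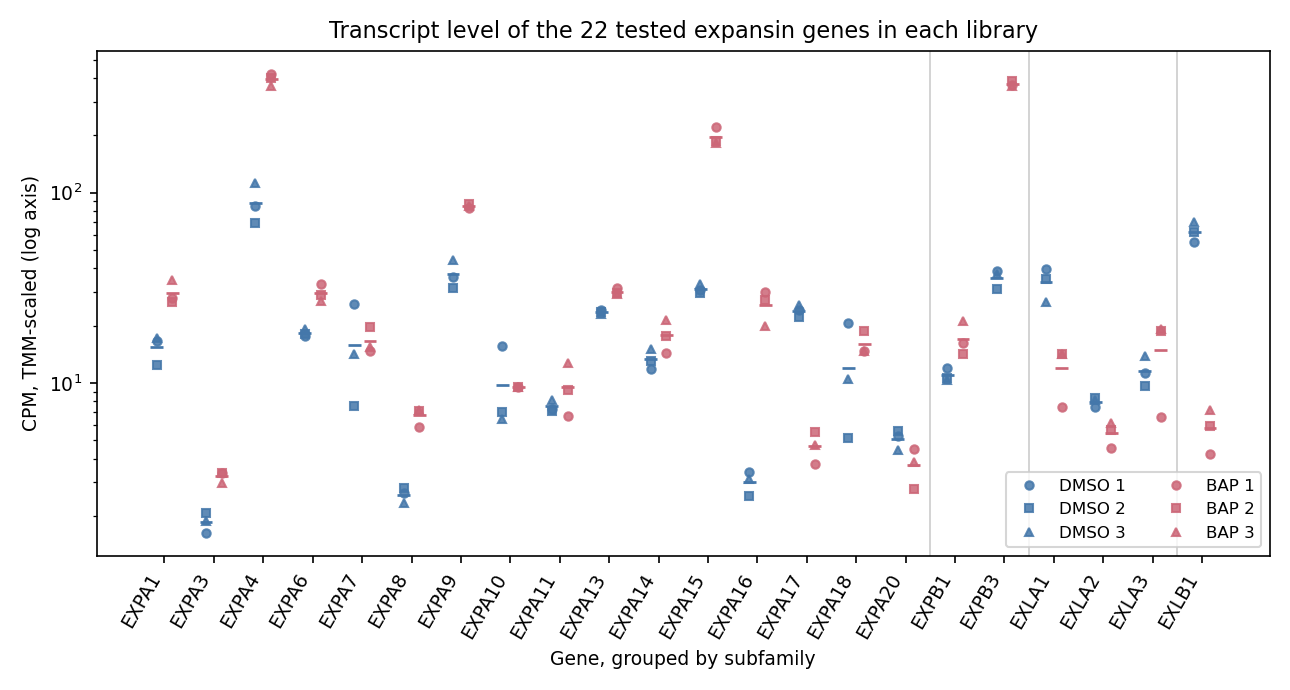
Level of each of the 22 tested expansin genes in CPM (log axis), with 1 symbol per library, DMSO in blue and BAP in red, and a short line at each group mean. EXPB3, EXPA15 and EXPA4 stand at 182 to 421 CPM in BAP, EXLB1 falls to 4.24 to 7.18 CPM, and the DMSO libraries of EXPA7, EXPA18 and EXPA10 are spread widely.

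Another 5 α-expansins rose by smaller amounts, also with no overlap between the groups. EXPA8 (AT2G40610), a weakly expressed gene, went from 2.62, 2.79 and 2.35 CPM to 5.90, 7.10 and 7.23 CPM (log2 fold change 1.38 ± 0.15, edgeR adjusted p of 1.54e-04). EXPA9 (AT5G02260) went from 36.0, 31.4 and 44.2 CPM to 83.0, 87.1 and 85.1 CPM (1.19 ± 0.11, edgeR adjusted p of 8.89e-05). EXPA1 (AT1G69530) is the member known as a cytokinin target in the root meristem. It had 16.6, 12.5 and 17.2 CPM in DMSO and 28.0, 26.7 and 34.5 CPM in BAP, a log2 fold change of 0.95 ± 0.14 (edgeR adjusted p of 0.00106). EXPA3 (AT2G37640) had 1.63, 2.07 and 1.87 CPM in DMSO and 3.36, 3.34 and 2.99 CPM in BAP (0.80 ± 0.17, edgeR adjusted p of 0.00598). EXPA6 (AT2G28950) had 17.7, 18.0 and 19.2 CPM in DMSO and 32.9, 29.0 and 27.03 CPM in BAP (0.70 ± 0.09, edgeR adjusted p of 5.06e-04). The member closest in sequence to EXPA1 was EXPA10 (AT1G26770), with 84.3% of aligned amino acids identical. EXPA10 acts in leaf growth, and its call differed from that of EXPA1. It had 15.7, 6.98 and 6.47 CPM in DMSO and 9.52, 9.51 and 9.47 CPM in BAP (-0.03 ± 0.30, edgeR adjusted p of 0.948). Without DMSO 1, the library in which EXPA10 was high, the change was 0.49 (edgeR adjusted p of 0.0150), still under the fold minimum. Whether the changes of EXPA1 and EXPA10 differed was not tested.

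The regions upstream of EXPB3 and EXPA16, the 2 genes with the largest increases, are shown with the words recognised by the type-B response regulators (ARR), the transcription factors of cytokinin signalling. The word AGATACG and its shorter relatives, the word AGATCT, the word AGATTC and the word AGATTT, were searched on both strands in the 300 bases before the annotated gene start (TAIR10.1, sequence from RefSeq's genome). Capitals mark the matches. The EXPB3 region is chr4:14002125-14002424 and the EXPA16 region chr3:20576250-20576549, both on the minus strand. The third sequence, for comparison, lies upstream of EXLB1, the gene with the largest decrease (chr4:9583291-9583590, minus strand).
EXPB3: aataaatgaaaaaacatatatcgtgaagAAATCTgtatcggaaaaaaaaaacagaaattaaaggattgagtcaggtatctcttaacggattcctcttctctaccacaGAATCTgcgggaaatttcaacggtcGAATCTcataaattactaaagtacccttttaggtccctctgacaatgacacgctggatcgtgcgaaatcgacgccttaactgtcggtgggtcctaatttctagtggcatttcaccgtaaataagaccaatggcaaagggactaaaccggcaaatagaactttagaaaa
EXPA16: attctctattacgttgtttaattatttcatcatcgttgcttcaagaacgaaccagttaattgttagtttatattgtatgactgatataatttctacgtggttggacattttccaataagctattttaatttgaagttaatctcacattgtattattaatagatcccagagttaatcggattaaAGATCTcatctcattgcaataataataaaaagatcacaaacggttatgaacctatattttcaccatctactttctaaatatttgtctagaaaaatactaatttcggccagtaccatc
EXLB1: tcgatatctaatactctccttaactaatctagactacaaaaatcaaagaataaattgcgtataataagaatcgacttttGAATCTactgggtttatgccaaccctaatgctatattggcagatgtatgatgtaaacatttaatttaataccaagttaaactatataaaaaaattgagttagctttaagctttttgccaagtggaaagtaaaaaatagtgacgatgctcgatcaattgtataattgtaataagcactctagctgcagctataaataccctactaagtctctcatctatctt

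EXPB3 held AGATTC at bases 193 and 168 before the gene start and AGATTT at base 272, each on the strand opposite to the gene. EXPA16 held AGATCT, which reads alike on both strands, at base 117. EXLB1 held AGATTC at base 221. Neither EXPA15, EXPA4 nor EXPA17 held any of these words in the window. Over the 34 protein-coding expansin genes the words were about as frequent as over the 27444 protein-coding nuclear genes. AGATTT was upstream of 38.2% of expansin genes and 39.8% of all genes, AGATTC of 17.6% and 19.6%, AGATCT of 5.88% and 7.21%, and AGATACG of 0 expansin genes and 2.08% of all genes. Of the 10 genes that rose, 4 held AGATTT, 2 held AGATTC and 1 held AGATCT.

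The genes that fell came from 3 subfamilies. EXLB1 (AT4G17030, chromosome 4, TAIR10, 9581586 to 9583290, minus strand) had 55.0, 62.1 and 70.0 CPM in DMSO and 4.24, 5.90 and 7.18 CPM in BAP. All 3 BAP libraries were far under the controls, and the log2 fold change was -3.43 ± 0.17, or 10.8-fold lower (edgeR adjusted p of 2.88e-06). EXLA1 (AT3G45970) had 39.6, 35.3 and 26.7 CPM in DMSO and 7.50, 14.1 and 14.1 CPM in BAP, a log2 fold change of -1.51 ± 0.23 (edgeR adjusted p of 0.00128). EXLA2 (AT4G38400) had 7.47, 8.29 and 8.11 CPM in DMSO and 4.55, 5.64 and 6.13 CPM in BAP, a log2 fold change of -0.55 ± 0.13 (edgeR adjusted p of 0.0127). BAP 1 was the lowest BAP library for both EXLA genes, and without it EXLA2 passed under the fold minimum (-0.43).

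EXLA3 (AT3G45960) lies beside EXLA1 on chromosome 3, with 1 other gene of the files between them and 2265 bp from the end of EXLA3 to the start of EXLA1. Their proteins were 86.3% identical, and at most 1.26% of the 50-base exon words of either gene occurred elsewhere in the nuclear genome. EXLA3 had 11.3, 9.63 and 13.8 CPM in DMSO and 6.62, 18.8 and 19.1 CPM in BAP, with BAP 1 under and the other BAP libraries above all controls. It was not called (0.36 ± 0.34, edgeR adjusted p of 0.442). Without BAP 1 its log2 fold change was 0.71 (edgeR adjusted p of 0.00846), the opposite direction to EXLA1. The difference between the neighbours was not tested.

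EXPA17 (AT4G01630), known from the emergence of lateral roots and as a target of the transcription factor LBD18, was the α-expansin that fell. It had 24.0, 22.3 and 25.6 CPM in DMSO and 3.72, 5.48 and 4.69 CPM in BAP, a log2 fold change of -2.37 ± 0.13 (edgeR adjusted p of 5.61e-06). The 6 lateral root markers were all detected in these main roots, from which lateral roots had been cut off. All 6 markers fell as well, where 11.4% of all genes tested were called lower. They summed to 45.2 to 47.3 CPM in DMSO and 10.2 to 10.4 CPM in BAP, with a median log2 fold change of -2.41. LBD16 changed by -2.48 ± 0.10, LBD29 by -3.05 ± 0.18 and LBD18 by -0.61 ± 0.14, with edgeR adjusted p-values of 1.19e-06, 6.63e-06 and 0.00984, and these 3 calls also held, at the same fold minimum, in the 12 alternative fits. Their part in the fall of EXPA17 was not tested. EXPA14 (AT5G56320), also known from lateral roots, was not called. It had 11.9, 12.96 and 15.1 CPM in DMSO and 14.4, 17.7 and 21.3 CPM in BAP (0.42 ± 0.15, edgeR adjusted p of 0.0552). It became a higher call without BAP 1 (0.55, edgeR adjusted p of 0.0162).

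EXPA7 (AT1G12560) and EXPA18 (AT1G62980) are the expansins of root hairs. EXPA7 had 25.8, 7.51 and 14.2 CPM in DMSO and 14.7, 19.6 and 15.5 CPM in BAP, and EXPA18 had 20.5, 5.11 and 10.5 CPM and 14.7, 18.6 and 14.7 CPM. In both genes DMSO 1 was the highest and DMSO 2 the lowest of all 6 libraries, and DMSO 1 exceeded DMSO 2 3.44-fold and 4.02-fold. Neither was called (EXPA7 0.07 ± 0.36, edgeR adjusted p of 0.899, and EXPA18 0.41 ± 0.39, edgeR adjusted p of 0.440). Without DMSO 1, EXPA18 was called higher (1.03, edgeR adjusted p of 0.0193) and EXPA7 was at 0.60 without a call. The sign of the EXPA7 change turned without DMSO 2 (-0.28), DMSO 3 (-0.02) or BAP 2 (-0.07).

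Part of the 10 root hair markers varied among the DMSO libraries in a similar way, while others, such as RHD2 (66.3, 53.6 and 62.6 CPM), varied little. DMSO 1 was the highest and DMSO 2 the lowest control in 8 of 10 markers. The same order held in 4 of the 22 tested expansins, EXPA7, EXPA18, EXPA16 and EXPB3. DMSO 1 was at least 2 times DMSO 2 in 5 of 10 markers and in 3 of the 22 expansins, EXPA7, EXPA18 and EXPA10. PRPL1, a proline-rich wall protein gene of root hairs, had 20.8, 5.44 and 10.7 CPM in DMSO and 14.8, 20.3 and 15.0 CPM in BAP. The list summed to 121 to 254.5 CPM in DMSO and 203 to 251 CPM in BAP, and every gene was detected. Of the 10 markers 0 were called, where 22.9% of all genes tested were called, with edgeR adjusted p-values of at least 0.107 and a log2 fold change of 0.89 for PRP3 as the largest in size. Unadjusted edgeR p-values under 0.05 were found for 0 of 10, and DESeq2 called 0 of 10. PRP3 came nearest, with an unadjusted edgeR p of 0.0505. It had 53.9, 13.2 and 31.5 CPM in DMSO and 56.7, 68.9 and 56.4 CPM in BAP. PRP3 was the 1 marker of the 10 whose groups did not overlap, compared with 51.3% of all genes tested. The part of root hair content in the levels of EXPA7 and EXPA18 was not tested.

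**Figure D4:**
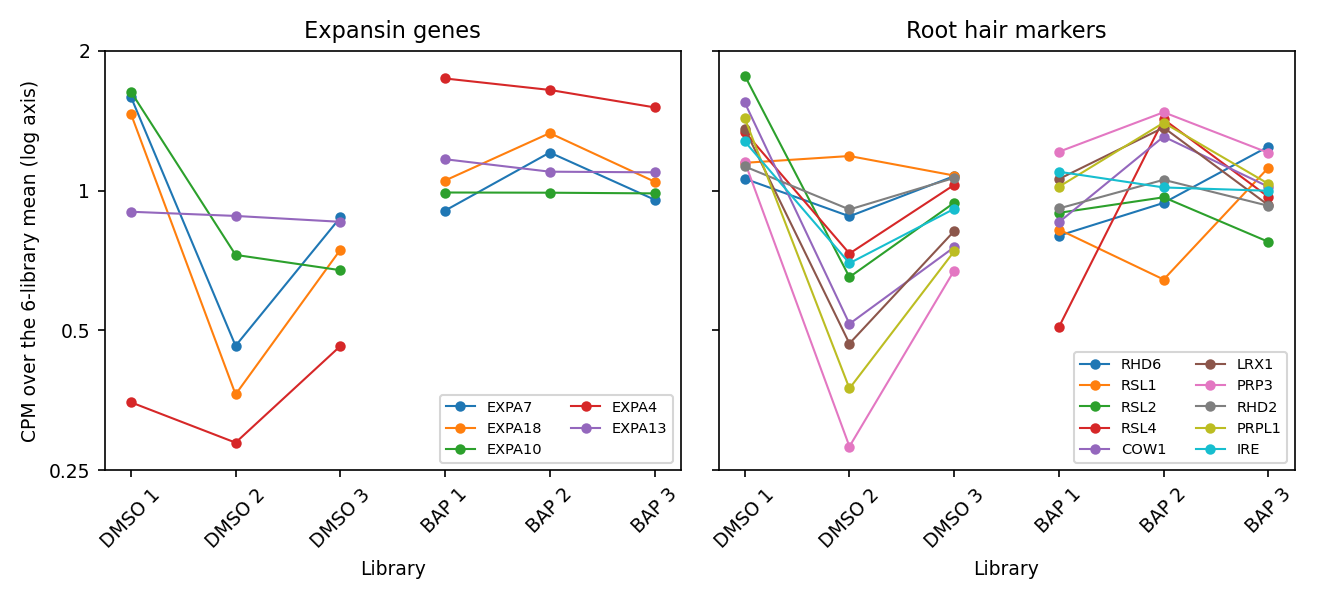
CPM of each gene divided by its mean over the 6 libraries (log axis), for 5 expansin genes (left) and the 10 root hair markers (right); lines join the libraries of a group only to mark the gene, since replicates have no order. EXPA7 and EXPA18 are high in DMSO 1 and low in DMSO 2, 3.44-fold and 4.02-fold apart. Among the controls 8 of the 10 root hair markers have this order, 5 of them at least 2-fold apart, while EXPA4 and EXPA13 do not have it.

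EXPA7 and EXPA18 also shared a sequence feature. A motif known as the root hair element (RHE) was searched on both strands in the same 300 bases, shown here because the pair moved together across libraries. It was found upstream of these 2 genes alone among the 34 protein-coding expansins, and upstream of 0.915% of all protein-coding genes. Since the motif was already known from root hair genes, which can include these 2, a match here could be fixed in advance. It is a description and not a test, and its part in the levels of the pair was not tested. Their proteins shared 67.6% of aligned amino acids. The regions are chr1:4276205-4276504 for EXPA7 and chr1:23331263-23331562 for EXPA18, both on the plus strand of TAIR10.1, and capitals mark the element. It begins 78 and 40 bases before the annotated gene start. The EXPA18 window overlaps a gene model on the opposite strand, AT1G62978.
EXPA7: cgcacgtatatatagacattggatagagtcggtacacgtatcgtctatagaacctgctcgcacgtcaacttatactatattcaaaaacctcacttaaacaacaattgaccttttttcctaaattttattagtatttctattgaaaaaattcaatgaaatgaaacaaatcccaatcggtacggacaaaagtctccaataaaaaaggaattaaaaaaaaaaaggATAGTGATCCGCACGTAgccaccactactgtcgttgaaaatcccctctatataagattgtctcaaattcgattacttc
EXPA18: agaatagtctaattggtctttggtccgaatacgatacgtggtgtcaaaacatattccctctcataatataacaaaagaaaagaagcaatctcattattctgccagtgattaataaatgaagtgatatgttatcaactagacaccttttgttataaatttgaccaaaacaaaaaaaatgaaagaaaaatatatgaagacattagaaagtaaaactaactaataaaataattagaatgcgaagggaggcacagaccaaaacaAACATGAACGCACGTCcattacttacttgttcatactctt

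The remaining tested members were not called. EXPA13 (AT3G03220) had 24.2, 23.7 and 23.0 CPM in DMSO and 31.4, 29.5 and 29.4 CPM in BAP. Its groups did not overlap and its edgeR adjusted p was 0.00424, but the change of 0.35 ± 0.07 was under the fold minimum. EXPA11 (AT1G20190) had 7.32, 7.13 and 8.15 CPM in DMSO and 6.72, 9.19 and 12.7 CPM in BAP (0.34 ± 0.21, edgeR adjusted p of 0.231). It was called higher without BAP 1, the lowest library (0.54, edgeR adjusted p of 0.0360). EXPA20 (AT4G38210) had 5.25, 5.59 and 4.41 CPM in DMSO and 4.50, 2.77 and 3.84 CPM in BAP (-0.46 ± 0.19, edgeR adjusted p of 0.0953), with the groups overlapping.

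The other 13 members had too few reads to be tested and together made up 0.0583% to 0.132% of the summed expansin level. EXPA22 (AT5G39270), EXPA23 (AT5G39280), EXPA25 (AT5G39300), EXPA26 (AT5G39290), EXPB4 (AT2G45110) and EXPB5 (AT3G60570) were without reads throughout, and a count of 0 still allows up to 3 counts per library. EXPA19 (AT3G29365), annotated as a transcribed pseudogene, and EXPB2 (AT1G65680) each had 1 read, both in BAP, and EXPA24 (AT5G39310) had 2, both in DMSO. EXPA2 (AT5G05290), which acts in seed germination, had read counts of 4, 1 and 4 under DMSO against 6, 6 and 7 under BAP, a ratio of 2.23 (95% exact binomial interval 0.961 to 5.60). EXPA5 (AT3G29030) had 2, 2 and 3 counts and 2, 2 and 8 (ratio 1.81, 0.657 to 5.43). EXPA12 (AT3G15370) had 1, 1 and 0 counts and 2, 7 and 4 (ratio 6.86, 1.55 to 62.7), and its edgeR adjusted p was 0.0584 in a fit with no filter beyond 1 read. EXPA21 (AT5G39260) had 5, 5 and 6 counts and 4, 5 and 6 (ratio 0.990, 0.456 to 2.14). These intervals cover counting error only.

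Of the 6 genes without reads, 4 lie together. EXPA21 to EXPA26 form a tandem array on chromosome 5 (TAIR10, 15726378 to 15740514, 14137 bp, all on the minus strand) with no other gene of the files between them. The 6 genes had 33 reads in all over the 6 libraries. Within the array EXPA22 and EXPA26 encoded proteins 97.5% identical, and EXPA23 and EXPA25 were 95.6% identical. In these 4 genes 34.0% to 54.5% of the 50-base exon words occurred elsewhere in the nuclear genome, and in EXPB5 15.5%, and how reads with several matches were counted is not given in the sources used here, so the counts of these 5 genes are uncertain. In each of the 22 tested members the share was at most 1.26%.

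The other genes of acid growth were read from lists chosen by function. Of the 11 AHA genes, all tested, 1 was called higher and 1 lower, or 18.2% against 22.9% of all genes tested, with a median log2 fold change of 0.04. Their summed level was 3182 to 3793 CPM in DMSO and 3612 to 4497 CPM in BAP. AHA2, the main pump of the root, averaged 2193 ± 236 CPM with DMSO against 2662 ± 377 CPM with BAP (0.28 ± 0.14, edgeR adjusted p of 0.144). AHA4 was called higher (0.51 ± 0.16, edgeR adjusted p of 0.0320), but not without DMSO 1 (0.47), DMSO 2 (0.38), BAP 2 (0.48) or BAP 3 (0.42). AHA10 was called lower (-0.58 ± 0.19, edgeR adjusted p of 0.0367), but not by DESeq2 (adjusted p of 0.162) or without DMSO 1, DMSO 2 or any single BAP library (edgeR adjusted p of 0.0504 to 0.113). The D-clade PP2C phosphatases, which switch the pumps off, numbered 9, all tested, of which 1 was called, in the lower direction (11.1% of the list, against 22.9% of all genes tested), with a median of -0.19. The gene called was AT5G06750, which changed by -0.62 ± 0.07 (edgeR adjusted p of 1.92e-04). The 6 genes of the SAUR19 subfamily, whose proteins inhibit these phosphatases, had at most 5 counts in any library and were not tested.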

How the data were processed

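The authors sequenced root RNA and deposited whole-number counts per gene, 1 file per library. The submitters' processing notes name FastQC, Bowtie2, HTSeq and the build TAIR10. Versions, strand setting and how multiply matching reads were handled are not given in the sources used here. The microarrays of the study were not used here.

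Counts were tested with edgeR 4.0.16 (R 4.3.3) by the quasi-likelihood test, with TMM scaling and filterByExpr (minimum count 10, minimum total 15), and p-values were adjusted by the Benjamini-Hochberg method over 20987 genes. The SE was the log2 fold change divided by the square root of F. The script was tested on simulated counts in which all genes had the same set spread. That was a check of the code and does not cover genes whose controls varied widely. The alternatives were DESeq2 1.42.0, 2 other scalings, 2 other filters, a replicate block, other fold minimums and leaving out each library. For the AHA, PP2C and LBD genes named, they were added after their values had been seen.

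All 35 expansins were accounted for, and each tested member was named. The members and the lists (AHA, SAUR19 subfamily, PP2C.D, root hair, lateral root, root tip, endodermis and shoot photosynthesis) were chosen with earlier results of these data known. Listed genes were named only where they were called or had the role described, and PRPL1 and PRP3 were chosen after their values were seen. Not every called gene of the lists was named. Among those left out were WOX5, SCR and LBD33, the lateral root marker with the largest change (-3.80 ± 0.86). The study calls the libraries biological replicates, but the labels do not say that libraries came from separate cultures, so p-values measure only the spread between these samples. Promoter words, exon lengths and translated proteins came from the RefSeq genome and annotation (TAIR10.1). Of 32835 nuclear gene identifiers shared with the files, 32.3% had the same span in both. Protein identity was taken from global alignments.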

Additional observations from a re-analysis of the deposited data

How the results depend on the processing

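The expansin counts of 10 higher and 4 lower were the same in number with DESeq2, DESeq2 size factors, upper-quartile scaling, a minimum mean of 1 CPM, no filter beyond 1 read and the replicate block. In those fits 2302 to 2532 of all genes were called higher and 2252 to 2534 lower. Leaving out 1 library gave 9 to 13 higher and 3 to 4 lower expansins. Of all genes, 2200 to 2387 were then called higher and 2107 to 2496 lower. Of the 14 called members, 12 kept their call in all 12 alternative fits at the same fold minimum, the exceptions being EXPB1 and EXLA2. With no fold minimum 11 and 4 expansins were called, and 3887 and 4061 of all genes. With a log2 minimum of 1 the counts were 6 and 3, since EXPA1, EXPA3, EXPA6, EXPB1 and EXLA2 lay under it, and 1099 and 1072 of all genes. The median log2 fold change of the expansins was 0.63 with no filter beyond 1 read, which added 7 members with few reads, and 0.36 to 0.63 when 1 library was left out.

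The changes that turned direction were those of EXPA7 (-0.28 without DMSO 2, -0.02 without DMSO 3, -0.07 without BAP 2, and -0.28 to 0.60 over all fits that left out 1 library) and EXPA10, which was at -0.27 to 0.49 when 1 library was left out. The cause was not tested. Same-numbered libraries had correlations of 0.212, 0.0508 and 0.291 between their deviations from the group means. Libraries with different numbers had -0.285 to 0.0664, and each DMSO library correlated best with the BAP library of its own number. The labels do not say whether the numbers are pairs, so the main fit did not pair them, and pairing remains possible. The replicate block gave 2474 higher and 2455 lower genes in all and an expansin median of 0.48, and with the replicate block EXPA10 was at 0.052. AHA4 was at 0.4975 with no filter. Members with few reads, such as EXPA2, EXPA5 and EXPA12, were limited by depth.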
